A study of Mus musculus with 19 samples.

Results

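The genes described here are 10 receptor genes through which myeloid cells sense antibody, microbial products and neighbouring cells: Fcer1g, Fcgr1, Fcgr2b, Fcgr3, Fcgr4, Cd14, Tlr2, Lilrb4, Cd84 and Clec7a. They were chosen by name, and all 10 were listed in each of 3 tables, out of 6842 gene symbols in any table and 2606 in all 3. The tables hold RNA of cells sorted by flow cytometry, namely astrocytes, microglia and monocytes, from mice with experimental autoimmune encephalomyelitis (EAE), an inflammatory disease of the central nervous system used as a model of multiple sclerosis. The mice were female C57Bl/6 animals labelled wild type, at postnatal day 85. A lentivirus injected into the brain carried green fluorescent protein and a short hairpin RNA under the Gfap promoter, which drives expression in astrocytes. This hairpin was directed at Xbp1, a transcription factor that acts when unfolded protein builds up in the endoplasmic reticulum (pLenti-Gfap-GFP-shXbp1, called shXbp1), or was a scrambled one (pLenti-Gfap-GFP-shScramble, called shScrmbl). All mice in both groups then received 25 µg of a myelin oligodendrocyte glycoprotein peptide in complete Freund's adjuvant. There were 4 shXbp1 and 4 shScrmbl libraries of astrocytes, 3 shXbp1 and 4 shScrmbl libraries of microglia, and 2 shXbp1 and 2 shScrmbl libraries of monocytes, each taken from a separate mouse within a cell type. The labels do not say which antibodies were used for sorting, whether sorted astrocytes carried the virus, or whether equal replicate numbers in different cell types mean equal mice.

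Fc receptors bind the constant part of antibodies. Fcer1g encodes the common gamma chain, a signalling subunit that the activating receptors for immunoglobulin G in mice, encoded by Fcgr1, Fcgr3 and Fcgr4, need at the cell surface, while Fcgr2b encodes the inhibitory receptor that counters them. Lilrb4 encodes another inhibitory receptor, Cd84 a self-binding receptor of the SLAM family, Cd14 a co-receptor that hands lipopolysaccharide to Toll-like receptor complexes, Tlr2 a receptor for bacterial lipoproteins, and Clec7a (dectin-1) a receptor for fungal glucans that is also raised in activated microglia. In the central nervous system these genes are known mainly from microglia and infiltrating myeloid cells.

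In the mouse genome (GRCm38, the build also called mm10, with GENCODE M21), 5 of the 10 genes lie near each other on chromosome 1. Fcgr2b is at chr1:170958617-170976547 (minus strand), Fcgr4 at chr1:171018920-171029761 (plus strand), Fcgr3 at chr1:171051174-171064935 (minus strand), Fcer1g at chr1:171229572-171234365 (minus strand) and Cd84 at chr1:171839697-171890718 (plus strand). Fcgr1 is at chr3:96282909-96293969, Tlr2 at chr3:83836272-83841767 and Clec7a at chr6:129461591-129472779, all on the minus strand. Lilrb4, named Lilrb4a in this annotation, is at chr10:51490956-51496611 on the plus strand. Fcgr2b overlaps Gm38204 and Lilrb4 overlaps Gm40645 on the other strand, and Fcgr3, Fcgr4 and Lilrb4 overlap Mir6546, Gm26110 and Gm49339 on their own strand. How reads of overlapping genes, of the related Fcgr genes or of Lilrb4 and its near copy were divided is not given in the sources used here, so the values of Fcgr2b, Fcgr3, Fcgr4 and Lilrb4 are uncertain to that extent.

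Promoter sequences are shown for the matches of a myeloid motif, since the genes are active in the same cells. RefSeq promoter windows on GRCm38.p6, from 250 bases before to 50 bases after the start, were at hand for 8 of the 10 genes, all but Cd14 and Lilrb4. The letters GAGGAA, read on either strand (TTCCTC on the other), are the core of the sites that the myeloid transcription factor PU.1 binds. They stood in 5 of these 8 windows, against 28.3% of the 27025 windows of all genes. In the following 30-base stretches, read 5′ to 3′ on the strand of the gene, the capitals mark the match.
Fcgr1: atggcaacttccTTCCTCttttctaatctt
Fcgr3: gagtccatttccTTCCTCtttttgtagttc
Fcgr4: aaggctatttacTTCCTCtcttctagtcaa
Cd84: cagtgcttggagTTCCTCtgtgactgacca
Clec7a: aaacaggatctaGAGGAAaaaagggaaatt
The stretches lie at chr3:96294007-96294036, chr1:171059392-171059421, chr1:171018892-171018921, chr1:171839696-171839725 and chr6:129472858-129472887, in the order of the lines. The match began at position -55 from the RefSeq start for Fcgr1, -6 for Fcgr3, -22 for Fcgr4, 11 for Cd84 and -96 for Clec7a. The 3 activating immunoglobulin G receptor genes all held a TTCCTC within 55 bases before the RefSeq start. For Fcgr3 the stretch lies inside the GENCODE span of the gene (chr1:171051174-171064935), so its RefSeq start is not the GENCODE one. A match is a description of the letters and does not show that the factor binds. The windows of Fcer1g, Fcgr2b and Tlr2 held neither form of the motif.

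Sequencing was shallow and uneven, which bounds what follows. Total counts per library were 53228 to 221367 in shXbp1 and 32842 to 302003 in shScrmbl astrocytes, 10039 to 46586 in shXbp1 and 17892 to 122002 in shScrmbl microglia, and 15654 to 56625 in shXbp1 and 74340 to 112676 in shScrmbl monocytes. Values below are the deposited normalised signal, in which the geometric mean of the library totals of a table is 1000000, and a count of 0 (floor of 3 counts) is compatible with signals as high as 82.7 in the astrocyte library with the fewest counts, 228 in that of microglia and 152 in that of monocytes. Xbp1 itself had a signal of 34.1, 52.9, 31.2 and 79.7 in shXbp1 astrocytes, against 20.1, 71.7, 79.9 and 27.6 in shScrmbl astrocytes. Those are 2, 11, 3 and 12 counts against 1, 17, 3 and 1. The groups overlapped, and so few counts do not show whether the hairpin lowered the counted transcript. The astrocyte libraries held 8 of 10 astrocyte markers (937 to 1330.2 summed signal in shXbp1 and 607 to 1076 in shScrmbl libraries). In microglia, with 3 of the 10 listed, the sum was 912 to 1104 in shXbp1 and 745 to 1111 in shScrmbl libraries. In monocytes, with 2 listed, it was 879 to 910 in shXbp1 and 974 to 1034 in shScrmbl libraries. The sum therefore did not set the astrocyte libraries apart. Gfap and Ntsr2 were not among the genes listed for astrocytes. The astrocyte libraries also held all 10 microglia markers, and 6 choroid plexus markers summing to 148815 to 273540 in shXbp1 and 211362 to 309566 in shScrmbl libraries. The astrocyte shScrmbl replicate 2 library stood apart: it was the deepest, and its microglia markers (2530.2) and monocyte and macrophage markers (4344) were above those of every other astrocyte library.

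The receptor genes took a smaller part of the counts in the astrocyte table than in the myeloid tables. Together they made up 0.0468% to 0.111% of the counts of a library in shXbp1 and 0.0508% to 0.265% in shScrmbl astrocytes, 0.796% to 1.07% in shXbp1 and 0.889% to 1.13% in shScrmbl microglia, and 0.390% to 1.03% in shXbp1 and 0.741% to 0.787% in shScrmbl monocytes. The tables were normalised separately, so levels across them are a description. Microglia libraries lay wholly above the astrocyte libraries for 6 of the 10 genes, and monocyte libraries for 5. Microglia and monocyte ranges overlapped for 8 genes, the exceptions being Fcgr1 and Fcgr3, whose microglia libraries were all above the monocyte ones. For Fcgr1 the lowest microglia library (207, from 3 counts) was close to the highest monocyte library (196). For Fcgr3 these values were close too, at 1522 and 1486. The share of all genes with these orders was not computed, so the counts do not set the receptor genes apart. In astrocytes the mean signal of Fcer1g exceeded that of 95.5% of the genes in the table, that of Cd84 84.8%, Fcgr3 84.6%, Cd14 82.7%, Clec7a 66.0%, Fcgr1 42.3%, Tlr2 39.1% and Fcgr2b 31.6%, and those of Fcgr4 and Lilrb4 2.15% and 1.27%. In microglia and monocytes Fcer1g exceeded 99.2% and 98.7%. In sorted bulk samples, fewer cells of a type and less RNA per cell cannot be told apart.

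**Figure D1:**
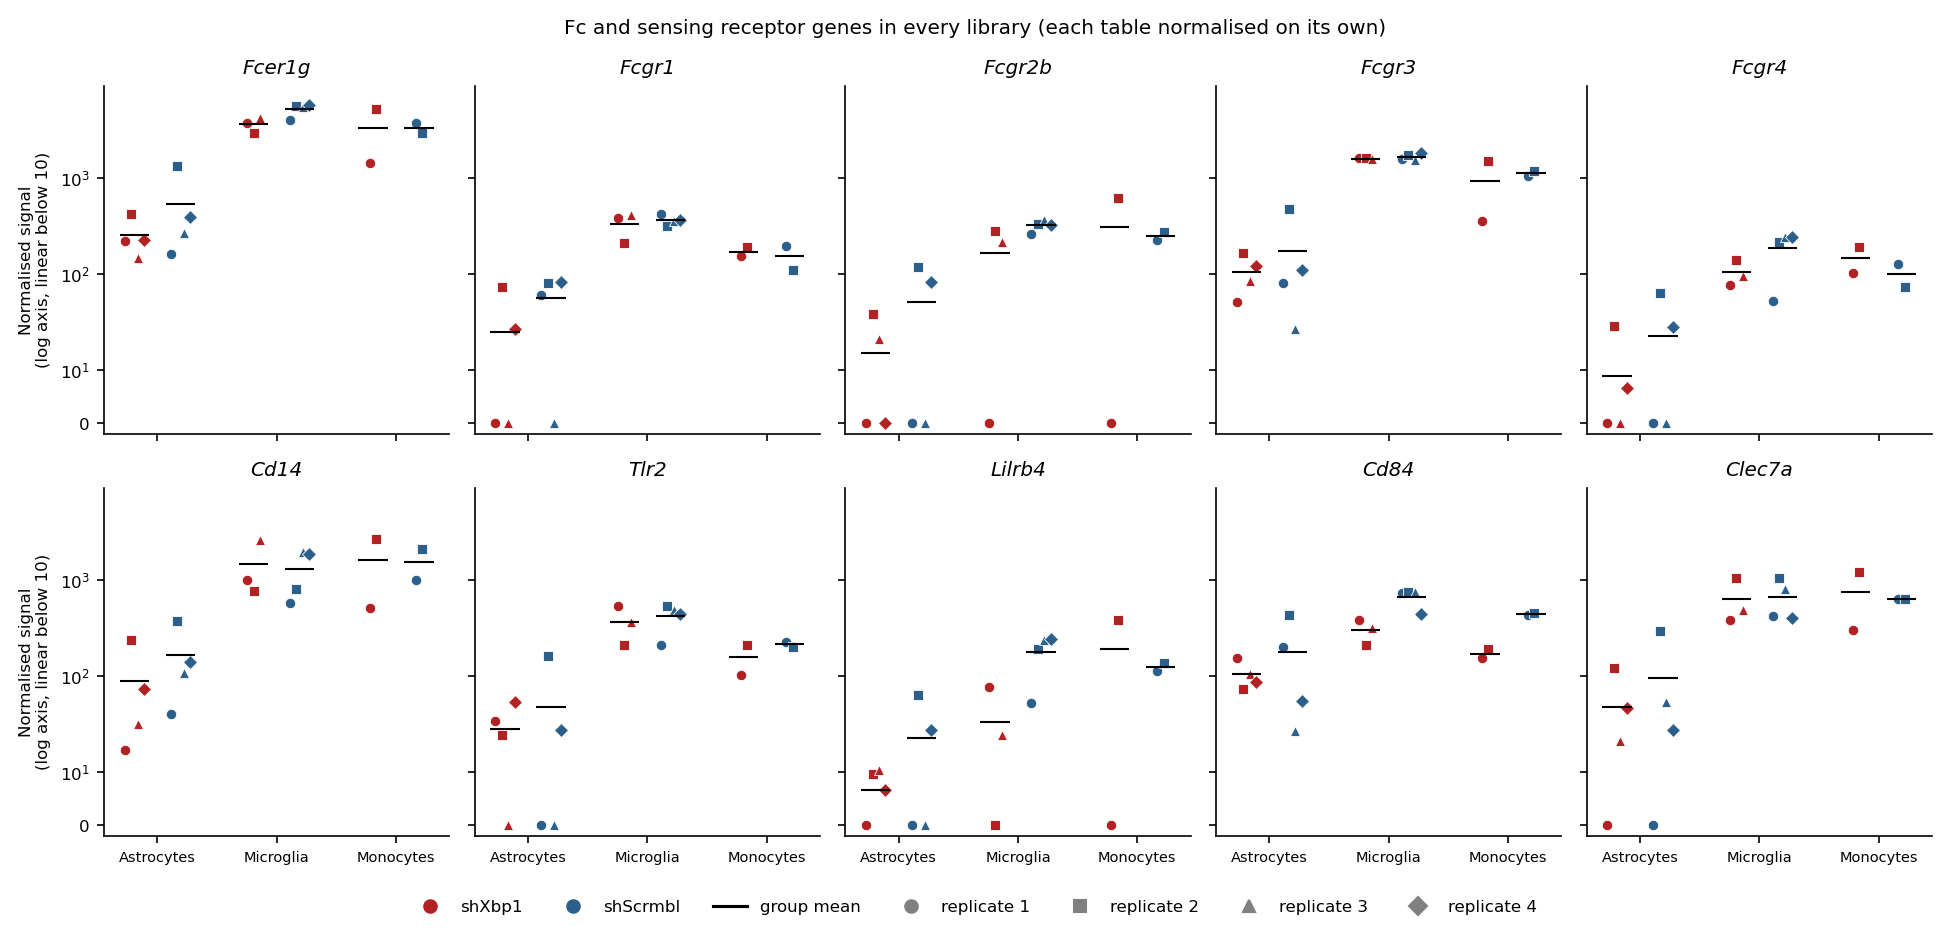
Normalised signal of each receptor gene (log axis, linear below 10) in every library, by cell type, with shXbp1 to the left of shScrmbl; points are libraries, their shape is the replicate number and bars are group means. Fcer1g reaches 5129 in monocytes and 5640.0 in microglia, Cd84 is lower in all shXbp1 libraries of microglia and monocytes, and the other groups overlap.

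The make-up of the receptor pool was alike across cell types in its main features. Counts are taken at the 3′ end of a transcript, so levels of genes within a library are compared per transcript end and need no length. Fcer1g had the largest share of the receptor counts in 18 of 19 libraries, with 29.6% to 55.6% in astrocytes, 39.6% to 48.5% in microglia and 36.3% to 48.3% in monocytes. The exception was astrocyte shScrmbl replicate 1, with 27 receptor counts in all, where Cd84 had 37.0%. Fcgr3 was the most counted of the 4 Fcgr genes in 19 of 19 libraries, with 5.56% to 20% of the receptor counts in astrocytes, 12.6% to 21.7% in microglia and 11.5% to 14.4% in monocytes. In astrocyte shScrmbl replicates 1, 3 and 4 it led by little, with 4, 1 and 4 counts against 3, 0 and 3 for Fcgr1. Cd84 took 12.6% of the pooled receptor counts of astrocytes (162 of 1290), 5.61% of microglia (185 of 3297) and 4.46% of monocytes (93 of 2084), although its per-library shares overlapped between the cell types. Cd14 took 12.7%, 14.0% and 21.1% of the pooled counts in astrocytes, microglia and monocytes, and its per-library shares overlapped too (3.57% to 22.2%, 6.92% to 25.5% and 12.9% to 26.0%). Of the 1290 pooled receptor counts of astrocytes, 800 came from shScrmbl replicate 2. That library also held the most total counts, 302003, against 32842 to 221367 in the other astrocyte libraries.

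**Figure D2:**
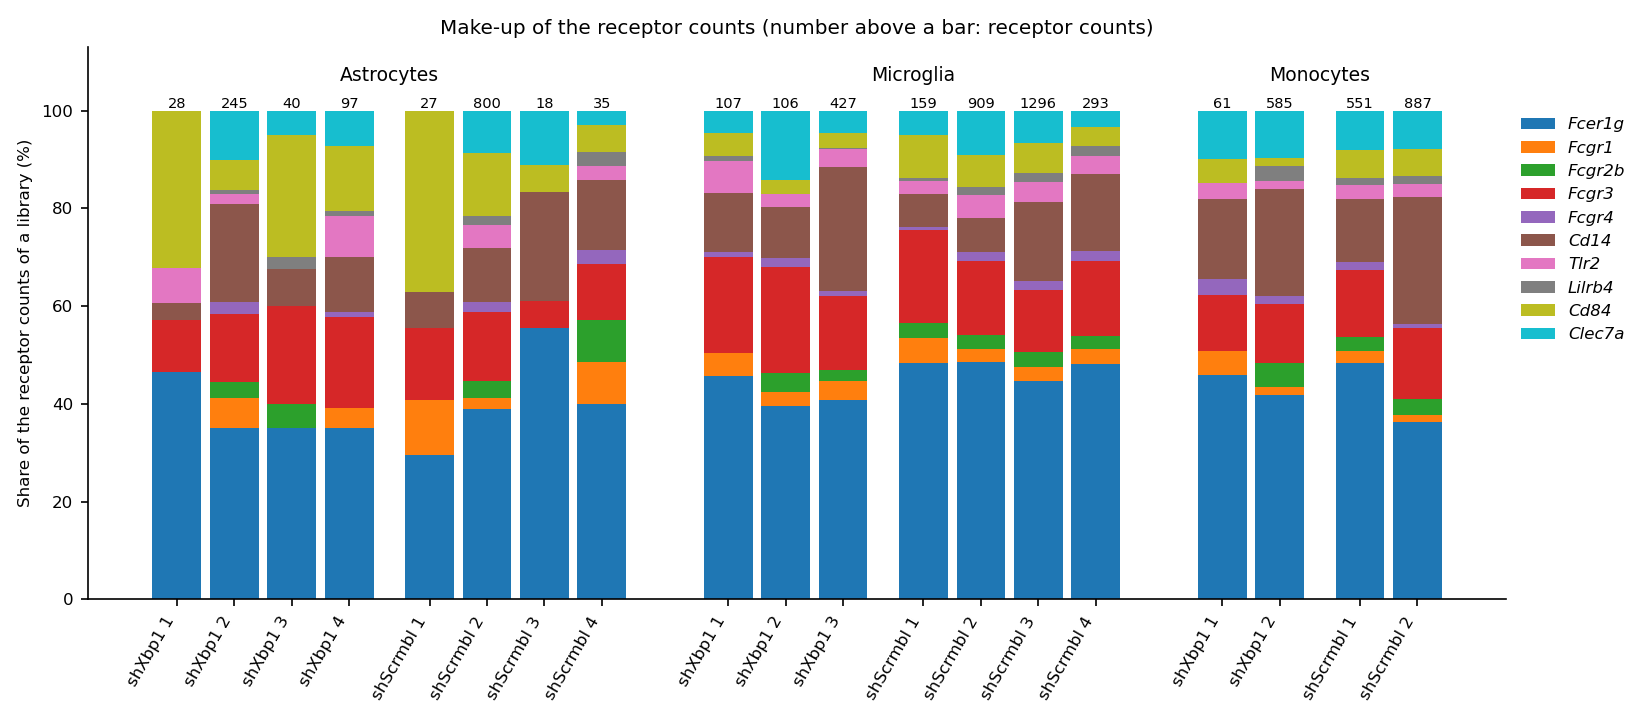
Share of each receptor gene in the receptor counts of a library (per cent), with the number of receptor counts above each bar; shXbp1 libraries stand left of shScrmbl libraries in each cell type. Fcer1g is the largest share in 18 of 19 libraries, and astrocyte libraries rest on 18 to 800 receptor counts.

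No receptor gene passed the test between viruses in any cell type. The test was limma on log2(signal + 1) over all genes of a table, with a Benjamini-Hochberg adjusted p under 0.05, and edgeR and DESeq2 on the recovered counts stood beside it. All 10 genes passed the filter on low values in each table. In astrocytes 0 of 10 were called by limma, edgeR or DESeq2, where the background was 0%, 0.0157% and 0% of 6366 genes. In microglia 0 of 10 were called, against 0%, 0.391% and 0% of 3066 genes, and in monocytes 0 of 10, against 2.68%, 0.0265% and 0% of 3775 genes. At an unadjusted p under 0.05, limma gave 0, 1 and 0 of the 10 genes in astrocytes, microglia and monocytes, edgeR 5, 2 and 0, and DESeq2 1, 2 and 0. Over all genes the same limit was met by 4.68%, 5.41% and 4.77% with limma, 6.57%, 5.48% and 4.66% with edgeR, and 2.06%, 2.02% and 0.556% with DESeq2. The p-values set the difference between viruses against the spread between libraries. That spread holds counting noise at this depth as well as differences between mice. A p that misses the threshold does not show that levels were alike.

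The 2 shXbp1 monocyte libraries lay far apart for most receptor genes, which bears on each monocyte value that follows. For 6 of the 10 genes (Fcer1g, Fcgr2b, Fcgr3, Cd14, Lilrb4 and Clec7a) replicate 1 lay below and replicate 2 above both shScrmbl libraries. Over all 3776 genes, 17.2% had that order and 12.3% the opposite one, while 0 of the 10 receptor genes had the opposite one. Replicate 1 held 15654 counts and replicate 2 held 56625. Their monocyte and macrophage markers summed to 5561 and 16728, against 22190.4 and 22682 in shScrmbl monocytes. The part of depth and of these markers in the receptor values was not tested. Of the 101 genes that limma called in monocytes, 99 had 0 counts in both shXbp1 libraries.

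Fcer1g, the signalling chain, had the highest level of the 10 genes in each table. In microglia its signal was 3724, 2898 and 4166 in shXbp1 libraries, against 3997, 5565, 5405 and 5640.0 in shScrmbl libraries. The shXbp1 libraries were in the lower part of the range, and the groups met only through shScrmbl replicate 1. The mean was 3596 ± 644 (SD, n = 3) in shXbp1 and 5152 ± 776 (n = 4) in shScrmbl microglia, with a limma log2 difference of -0.52 (95% interval -1.15 to 0.11, adjusted p = 0.814). The gamma chain is also part of the immunoglobulin E receptor of mast cells and basophils, and 2 of 6 listed markers of those cells were in the microglia table (Mcpt8 and Prss34), summing to 345 to 1077 in shXbp1 and 56.0 to 341 in shScrmbl libraries. Their part in the Fcer1g values was not tested.

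In astrocytes Fcer1g was at 222, 414, 146 and 226 in shXbp1 libraries, against 160.5, 1311, 266 and 386 in shScrmbl libraries. The groups overlapped, and shScrmbl replicate 2 was far above the rest. The limma log2 difference was -0.71 (95% interval -1.91 to 0.50, adjusted p = 0.824), and the edgeR difference of -1.17 moved to -0.06 without shScrmbl replicate 2. In monocytes the signal was 1416 and 5129 in shXbp1 libraries, against 3717 and 2932 in shScrmbl libraries. The limma difference there was -0.29 (95% interval -1.55 to 0.97, adjusted p = 0.916). Without shXbp1 replicate 2 it was -1.22 (adjusted p = 0.0019), with the lone shXbp1 library assumed to vary like the others, and without shXbp1 replicate 1 it was 0.64 (adjusted p = 0.0992). Its adjusted p over all alternatives ran from 0.0019 to 0.9997.

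Fcgr3, the most counted of the activating immunoglobulin G receptors, was the steadiest of the genes in microglia. Its signal was 1596, 1587 and 1556 in shXbp1 microglia, against 1557, 1729, 1522 and 1800 in shScrmbl microglia. The mean of 1579.6 ± 20.8 (SD, n = 3) in shXbp1 libraries lay within the spread of the shScrmbl libraries (1652 ± 134, n = 4), and the 95% interval of the limma log2 difference ran from -0.75 to 0.63. In monocytes Fcgr3 gave 354 and 1486 in shXbp1 libraries, against 1048 and 1166 in shScrmbl libraries. In astrocytes it gave 51.2, 164, 83.3 and 119.5 in shXbp1 libraries, against 80.2, 477, 26.6 and 110.3 in shScrmbl libraries. Both ranges overlapped.

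Fcgr1, the high-affinity receptor, was at 380.0, 207 and 407 in shXbp1 microglia, against 415, 315, 355 and 360 in shScrmbl microglia. The groups overlapped, with a limma log2 difference of -0.18 (95% interval -1.08 to 0.72, adjusted p = 0.946). Monocyte values were 152 and 188 in shXbp1 and 196 and 109 in shScrmbl libraries. Astrocyte values were 0, 72.2, 0 and 26.6 in shXbp1 and 60.2, 80.1, 0 and 82.7 in shScrmbl libraries, from 19 counts in shXbp1 and 25 in shScrmbl libraries. A signal of 0 in the shallow libraries is within what the depth allows.

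Fcgr4, which binds some immunoglobulin G subclasses with intermediate affinity, was the lowest of the activating receptors in each table. Microglia had 76.0, 138 and 95.8 in shXbp1 libraries, against 51.9, 215, 243 and 240 in shScrmbl libraries. Of the shScrmbl libraries, replicates 2 to 4 were above all shXbp1 libraries and replicate 1 was below them. The limma log2 difference was -0.67 (95% interval -1.98 to 0.64, adjusted p = 0.814), from 7 counts in shXbp1 and 50 in shScrmbl libraries. In monocytes Fcgr4 was at 101 and 188 in shXbp1 libraries, against 126 and 72.8 in shScrmbl libraries. In astrocytes it reached at most 28.9 in shXbp1 and 63.3 in shScrmbl libraries, with 2 libraries at 0 in each group.

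Fcgr2b, the inhibitory immunoglobulin G receptor, was at 0, 276 and 215 in shXbp1 microglia, against 259.5, 328, 364 and 320 in shScrmbl microglia. The library at 0 was the shallowest in the study, where a count of 0 allows a signal of up to 228, so this value is not evidence of absence. The limma log2 difference of -3.02 rests on that 0 (95% interval -8.41 to 2.38, adjusted p = 0.814), and edgeR gave -0.84. Set against the activating receptors, pooled counts of Fcgr1, Fcgr3 and Fcgr4 were 10.8 times those of Fcgr2b in shXbp1 microglia (141 and 13 counts) and 6.47 times in shScrmbl microglia (505 and 78 counts). By library the ratio was 7 and 9.56 in the 2 shXbp1 libraries that had Fcgr2b counts, against 7.8, 6.88, 5.82 and 7.5 in shScrmbl libraries, so the groups overlapped. In monocytes Fcgr2b gave 0 and 607 in shXbp1 libraries, against 224 and 273 in shScrmbl libraries, and the pooled ratio was 3.48 in shXbp1 and 5.35 in shScrmbl libraries. In astrocytes it gave 0, 38.5, 20.8 and 0 in shXbp1 libraries, against 0, 118, 0 and 82.7 in shScrmbl libraries.

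Lilrb4, an inhibitory receptor of myeloid cells, had the smallest edgeR p of the 10 genes in microglia and rested on few counts. Its signal was 76.0, 0 and 23.9 in shXbp1 libraries, against 51.9, 189, 233 and 240 in shScrmbl libraries. Those are 2 counts in 3 shXbp1 libraries against 47 counts in 4 shScrmbl libraries, a pooled ratio of 0.141 for equal depth (95% counting interval 0.0166 to 0.540). The groups overlapped because shXbp1 replicate 1 and shScrmbl replicate 1 each held a single count. The limma log2 difference was -3.63 (95% interval -7.49 to 0.22, adjusted p = 0.804), and the edgeR difference was -2.66 (adjusted p = 0.212, from 0.0912 to 0.9996 over all alternatives). The limma value was -1.82 without shXbp1 replicate 2, the library at 0, and -4.95 without shXbp1 replicate 1. In monocytes Lilrb4 was at 0 and 377 in shXbp1 libraries, against 112 and 137 in shScrmbl libraries. In astrocytes it was at 0, 9.62, 10.4 and 6.64 in shXbp1 libraries, against 0, 63.3, 0 and 27.6 in shScrmbl libraries.

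Cd84, the SLAM family receptor, was the gene whose groups did not overlap in microglia and in monocytes. Microglia had 380.0, 207 and 311 in shXbp1 libraries, against 727, 745, 747 and 440 in shScrmbl libraries. Monocytes had 152 and 188 in shXbp1 libraries, against 433 and 455 in shScrmbl libraries. These values rest on 21 counts in shXbp1 and 164 in shScrmbl microglia, and on 12 and 81 counts in monocytes. The 207 of microglia replicate 2 and the 152 of monocyte replicate 1 are 3 counts each, which is the floor of those shXbp1 libraries. All shXbp1 libraries were below all shScrmbl libraries for 1 of the 10 genes in microglia, where the background was 4.92% of genes, for 1 of 10 in monocytes, where it was 25%, and for 0 of 10 in astrocytes, where it was 0.786%. The mean in microglia was 299 ± 87.1 (SD, n = 3) in shXbp1 and 664 ± 149.9 (n = 4) in shScrmbl libraries, with a limma log2 difference of -1.16 (95% interval -2.02 to -0.30, unadjusted p = 0.00978, adjusted p = 0.804). The mean in monocytes was 170.1 ± 26.0 (n = 2) in shXbp1 and 444 ± 15.6 (n = 2) in shScrmbl libraries, with a limma log2 difference of -1.39 (95% interval -2.80 to 0.02, adjusted p = 0.887). Neither passed after adjustment over all genes. Without shXbp1 monocyte replicate 2 the monocyte value was -1.54 by limma (adjusted p = 0.016) and -1.54 by edgeR (adjusted p = 0.616), again with a lone library. Without shXbp1 monocyte replicate 1 it was -1.23 by limma (adjusted p = 0.103) and -1.28 by edgeR (adjusted p = 0.304).

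In astrocytes Cd84 was at 153, 72.2, 104 and 86.3 in shXbp1 libraries, against 201, 430.1, 26.6 and 55.2 in shScrmbl libraries. The shXbp1 libraries lay inside the range of the shScrmbl libraries, and the limma log2 difference was -0.09 (95% interval -1.64 to 1.45, adjusted p = 0.974). The edgeR difference was -1.15 with all libraries and -0.13 without shScrmbl replicate 2. Whether the Cd84 difference varies between cell types was not tested.

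**Figure D3:**
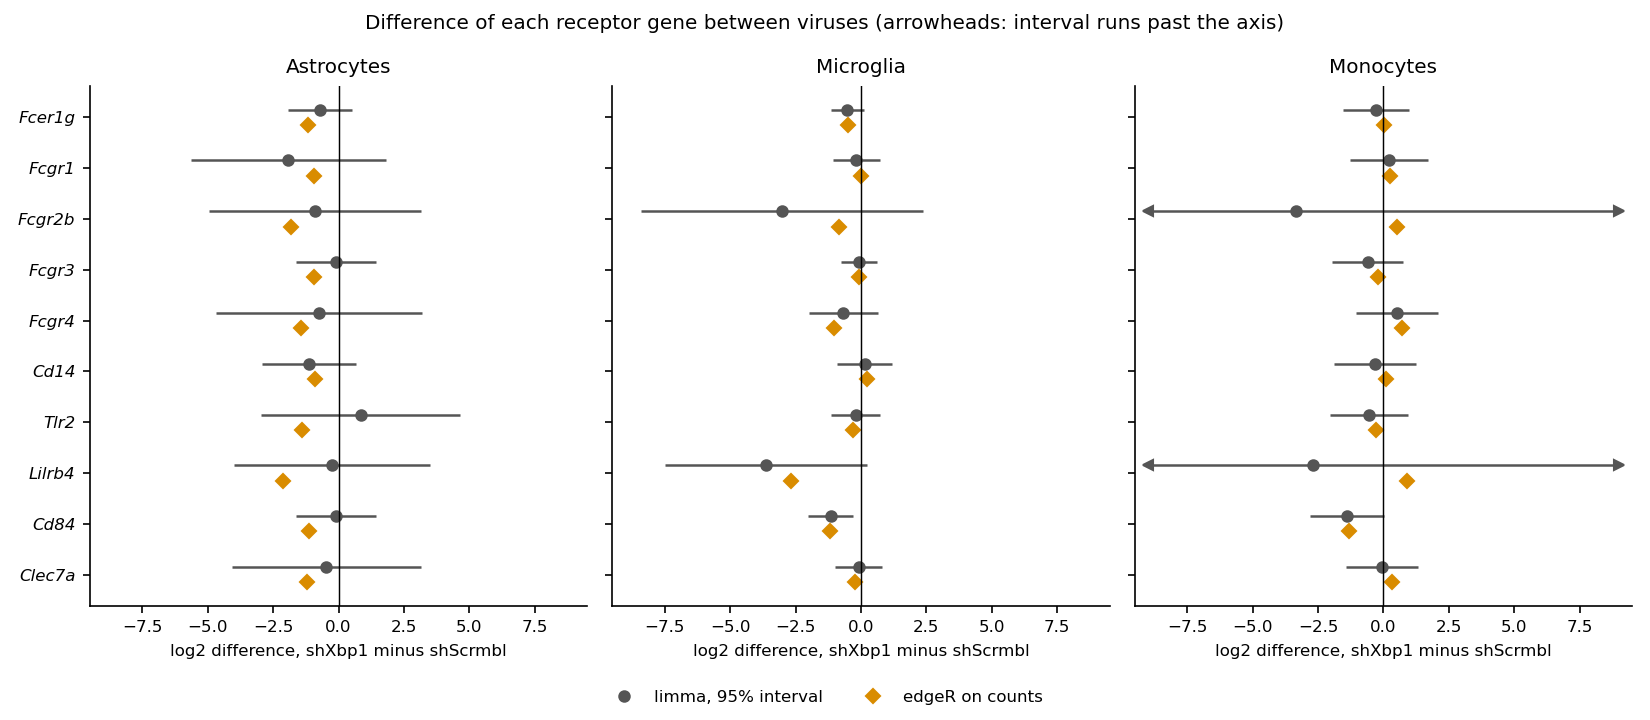
Log2 difference (shXbp1 minus shScrmbl) of each receptor gene in the 3 cell types, from limma with its 95% interval (grey) and from edgeR on counts (orange); arrowheads mark intervals that run past the axis. In microglia the limma interval of Cd84 lies below 0 and the other 9 cross 0, and the astrocyte edgeR values are all below 0.

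Cd14, the lipopolysaccharide co-receptor (chromosome 18, 36725067 to 36726798, minus strand, GRCm38), varied widely within groups. Microglia had 988, 759 and 2609.6 in shXbp1 libraries, against 571, 808, 1951 and 1840 in shScrmbl libraries. Both groups held low and high libraries, and the limma log2 difference was 0.14 (95% interval -0.90 to 1.18, adjusted p = 0.981). It was the 1 gene of the 10 with a higher mean in shXbp1 microglia by limma and edgeR. In monocytes Cd14 was at 506 and 2679.8 in shXbp1 libraries, against 992 and 2103 in shScrmbl libraries. In astrocytes it was at 17.1, 236, 31.2 and 73.0 in shXbp1 libraries, against 40.1, 375, 107 and 138 in shScrmbl libraries. The library with the highest Cd14 of each astrocyte group was replicate 2, the deepest of its group.

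Tlr2, the lipoprotein receptor, overlapped between viruses in each cell type. Microglia had 532, 207 and 359 in shXbp1 libraries, against 208, 530.0, 485 and 440 in shScrmbl libraries, with a limma log2 difference of -0.20 (95% interval -1.15 to 0.75). Monocytes had 101 and 209 in shXbp1 libraries, against 224 and 200.3 in shScrmbl libraries. Astrocytes had 34.1, 24.1, 0 and 53.1 in shXbp1 libraries, against 0, 160.2, 0 and 27.6 in shScrmbl libraries. The astrocyte difference had opposite signs by tool, 0.84 by limma and -1.38 by edgeR.

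Clec7a, the glucan receptor, had 380.0, 1035 and 479 in shXbp1 microglia, against 415, 1047, 793 and 400 in shScrmbl microglia. The ranges nearly coincided, with a limma log2 difference of -0.09 (95% interval -0.99 to 0.81, adjusted p = 0.996). In monocytes it had 303 and 1193 in shXbp1 libraries, against 629 and 628 in shScrmbl libraries, so the shXbp1 libraries lay on either side of a close pair. In astrocytes it had 0, 120.3, 20.8 and 46.5 in shXbp1 libraries, against 0, 295, 53.3 and 27.6 in shScrmbl libraries.

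Taken over the 10 genes, the astrocyte values leaned lower in shXbp1 by the count test, and this rested on a single library. By edgeR 10 of 10 were lower in shXbp1 astrocytes, where 46.8% of all genes were, with a median log2 difference of -1.19 against 0.05 over all genes. By limma 9 of 10 were lower, where 31.8% of all genes were, with a median of -0.59 against 0.42. At an unadjusted edgeR p under 0.05, 5 of 10 were lower (Fcer1g, Fcgr2b, Tlr2, Lilrb4 and Cd84), where 2.91% of all genes were. Astrocyte shScrmbl replicate 2 held 800 of the 880 receptor counts of its group. It was also the deepest, with 302003 total counts against 50392, 35450 and 32842 in replicates 1, 3 and 4. Receptor counts were 0.265% of its total, against 0.0536%, 0.0508% and 0.107% of theirs. Without shScrmbl replicate 2, 5 of 10 were lower by edgeR (38.5% of all genes) and 3 of 10 by limma (28.9%). At an unadjusted edgeR p under 0.05, 0 of 10 were then lower (0.911% of all genes). Clec7a, Tlr2 and Fcgr3 were then at 1.21, 1.64 and 0.61 by edgeR.

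Markers of myeloid cells and the receptors were both highest in astrocyte shScrmbl replicate 2. Elsewhere the microglia markers and the receptor sum kept the same order only in part. The next highest for both was shXbp1 replicate 2, at 1068 and 1179. The order differed for shXbp1 replicate 1 (1040 and 478, from 28 receptor counts) and shScrmbl replicate 4 (745 and 965, from 35 receptor counts). The 10 receptor genes summed to 416 to 1179 in shXbp1 and 479 to 3374 in shScrmbl astrocytes. The 10 microglia markers summed to 687 to 1068 in shXbp1 and 479 to 2530.2 in shScrmbl libraries, with 9 of 10 lower in shXbp1 by edgeR. Their median sum, however, was 965 in shXbp1 and 703 in shScrmbl libraries. Of 11 monocyte and macrophage markers, Ccr2, Ly6c2, Plac8, F13a1, S100a4 and Ms4a4c were not among the genes listed for astrocytes. The other 5 summed to 392 to 1193 in shXbp1 and 381 to 4344 in shScrmbl libraries, with 4 of 5 lower by edgeR. Marker directions without shScrmbl replicate 2 are not given here. Divided by the microglia markers of the same library, the receptor sum was 0.459 to 1.10 in shXbp1 and 0.818 to 1.33 in shScrmbl astrocytes, and the groups overlapped. The part of these myeloid markers in the astrocyte receptor values was not tested.

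**Figure D4:**
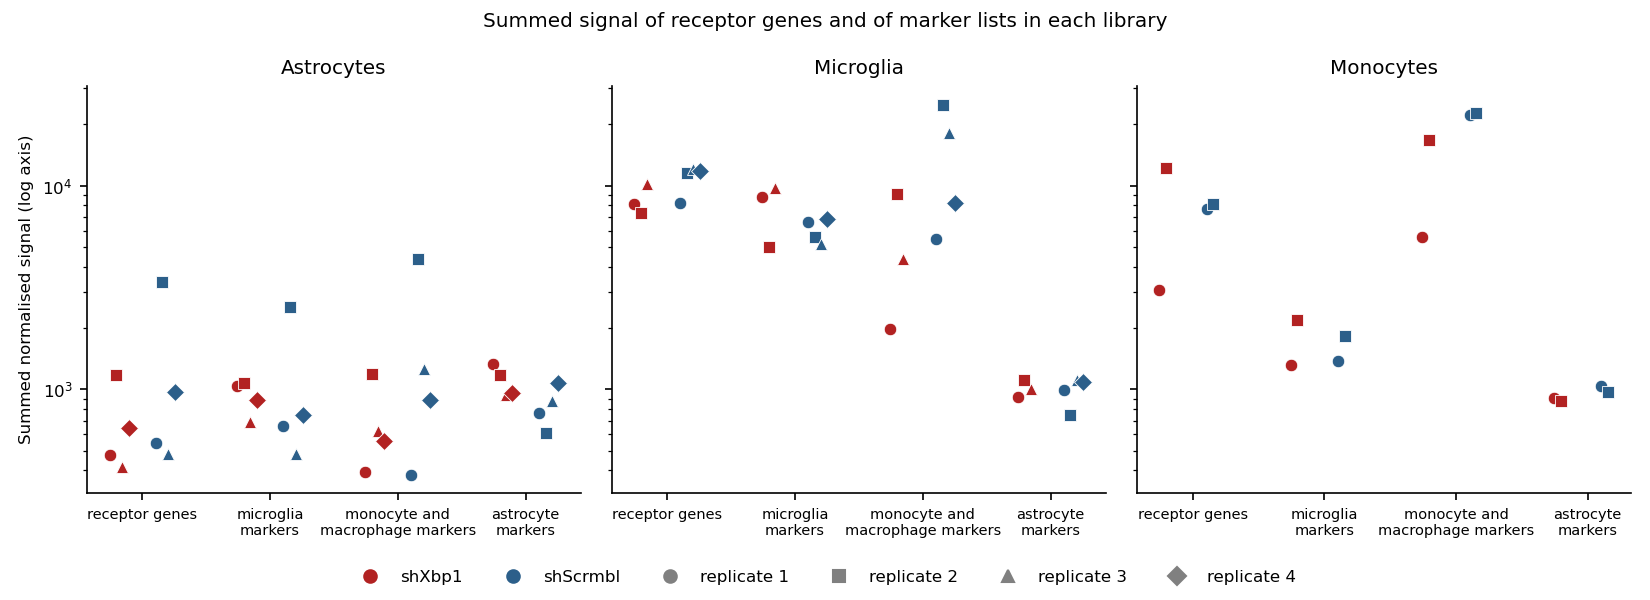
Summed normalised signal (log axis) of the 10 receptor genes and of microglia, monocyte and macrophage, and astrocyte markers in each library, with shXbp1 (red) left of shScrmbl (blue). In astrocytes shScrmbl replicate 2 is highest for receptor genes (3374), microglia markers (2530.2) and monocyte and macrophage markers (4344).

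In microglia 9 of 10 receptor genes were lower in shXbp1 by edgeR, where 55.4% of all genes were, and 9 of 10 by limma, where 65.5% were. The median edgeR log2 difference was -0.41 against -0.09 over all genes, and the limma medians were -0.36 and -0.39. At an unadjusted edgeR p under 0.05, 2 of 10 were lower (Lilrb4 and Cd84), where 4.04% of all genes were, and the count was 2 whichever library was left out. The receptor sum was 7313 to 10223 in shXbp1 and 8253 to 12098 in shScrmbl microglia. The microglia markers summed to 4967 to 9720.2 in shXbp1 and 5144 to 6880.0 in shScrmbl libraries, with 0 of 10 lower by edgeR. The 11 monocyte and macrophage markers summed to 1976 to 9107 in shXbp1 and 5450.1 to 24998 in shScrmbl libraries, with 11 of 11 lower by edgeR and a median log2 difference of -1.44. The part of these monocyte and macrophage markers in the microglia receptor values was not tested.

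In monocytes the sign depended on the tool. By limma 8 of 10 were lower in shXbp1, where 65.8% of all genes were, and by edgeR 3 of 10 (Fcgr3, Tlr2 and Cd84), where 56.9% were. The limma median was -0.42 for the receptor genes and -0.42 for all genes, and the edgeR median was 0.17 against -0.17. At an unadjusted edgeR p under 0.05, 0 of 10 were lower, where 3.5% of all genes were. Without shXbp1 replicate 2, limma called 6 of 10 lower (Fcer1g, Fcgr2b, Fcgr3, Cd14, Lilrb4 and Cd84) where 30.8% of all 3776 genes were called in either direction (1163 genes), and edgeR called 2 (Fcer1g and Cd14), where 0.768% were (29 genes). Without shXbp1 replicate 1, limma and edgeR called 0 of 10, where 12.9% and 1.62% of all genes were called. By each tool 2 of 10 were then lower, where 53.7% of all genes were by limma and 57.7% by edgeR. Neutrophil markers summed to 209 to 354 in shXbp1 and 774 to 908 in shScrmbl monocytes, and T and NK cell markers to 3994 to 4313 in shXbp1 and 2340.2 to 3424 in shScrmbl monocytes, and their part in these values was not tested.

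Genes that work with these receptors were taken from 3 lists, and 0 of them passed limma, edgeR or DESeq2 in any table. Of 29 Fc receptor partners and adaptors, 14 were measured in astrocytes, 20 in microglia and 23 in monocytes. By edgeR 14 of 14 were lower in shXbp1 astrocytes (6 at an unadjusted p under 0.05), 14 of 20 in microglia (1) and 14 of 23 in monocytes (0), and the median log2 differences were -0.98, -0.42 and -0.17. Over all genes 46.8%, 55.4% and 56.9% were lower by edgeR, with medians of 0.05, -0.09 and -0.17, and 6.57%, 5.48% and 4.66% had an unadjusted p under 0.05 in either direction. By limma 9 of 14, 15 of 20 and 18 of 23 partners were lower, where 31.8%, 65.5% and 65.8% of all genes were, with medians of -0.29, -0.52 and -1.18 against 0.42, -0.39 and -0.42. The astrocyte count rested on 1 library: without shScrmbl replicate 2, 5 of 14 were lower by edgeR (38.5% of all genes) and 5 of 14 by limma (28.9%). In monocytes edgeR gave 21 of 23 lower without shXbp1 replicate 2 (61.5% of all genes) and 12 of 23 without shXbp1 replicate 1 (57.7%). Tyrobp, the other immunoreceptor adaptor chain of myeloid cells, averaged 174 ± 58.0 (SD, n = 4) in shXbp1 and 356 ± 272 (n = 4) in shScrmbl astrocytes, and 2525.0 ± 1237 (n = 3) in shXbp1 and 3512 ± 1026 (n = 4) in shScrmbl microglia. In monocytes Tyrobp averaged 2180.5 ± 1654 (n = 2) in shXbp1 and 2111 ± 40.8 (n = 2) in shScrmbl libraries. Sirpa, an inhibitory receptor that recognises CD47, averaged 505 ± 124 (n = 3) in shXbp1 and 699.7 ± 136 (n = 4) in shScrmbl microglia, and 128 ± 33.2 (n = 2) in shXbp1 and 352 ± 82.2 (n = 2) in shScrmbl monocytes. Ptprc, the CD45 phosphatase of leukocytes, averaged 512 ± 75.7 (n = 3) in shXbp1 and 398 ± 90.4 (n = 4) in shScrmbl microglia. In monocytes Ptprc averaged 496 ± 228 (n = 2) in shXbp1 and 765 ± 64.4 (n = 2) in shScrmbl libraries, and in astrocytes 119 ± 33.9 (n = 4) in shXbp1 and 144 ± 121 (n = 4) in shScrmbl libraries.

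Of 23 partners of Toll-like receptors and Cd14, 6 were measured in astrocytes, 7 in microglia and 6 in monocytes. By edgeR 5 of 6 were lower in shXbp1 astrocytes, 3 of 7 in microglia and 4 of 6 in monocytes, with 0 at an unadjusted edgeR p under 0.05 in each, while limma gave 0, 3 and 0. Over all microglia genes 5.41% met that limit by limma in either direction. The microglia limma count was 0 without shXbp1 replicate 1 and 3 without shXbp1 replicate 3. By limma 1 of 6, 3 of 7 and 5 of 6 were lower, so the astrocyte direction turned with the tool (median log2 difference 0.36 by limma and -0.09 by edgeR). The shares of all genes lower were those given for the Fc receptor partners, and without shScrmbl replicate 2 the astrocyte counts were 2 of 6 by edgeR and 1 of 6 by limma. Ly86, a secreted partner of the receptor Cd180, averaged 732 ± 99.6 (n = 3) in shXbp1 and 651 ± 34.2 (n = 4) in shScrmbl microglia. Irak1, a kinase downstream of Toll-like receptors, averaged 420.5 ± 198 (n = 3) in shXbp1 and 330.5 ± 116 (n = 4) in shScrmbl microglia. Of 10 SLAM family genes and adaptors, 3, 6 and 6 were measured, and 3 of 3, 5 of 6 and 3 of 6 were lower by edgeR in astrocytes, microglia and monocytes, where 46.8%, 55.4% and 56.9% of all genes were. By limma 1 of 3, 6 of 6 and 4 of 6 were lower, where 31.8%, 65.5% and 65.8% of all genes were. The astrocyte median was 1.08 by limma and -1.50 by edgeR, and 1 of 3 were lower by each tool without shScrmbl replicate 2. In monocytes 5 of 6 were lower by edgeR without shXbp1 replicate 2 and 2 of 6 without shXbp1 replicate 1. Slamf9, like Cd84 a SLAM family receptor, averaged 13.5 ± 13.1 (n = 4) in shXbp1 and 43.4 ± 24.3 (n = 4) in shScrmbl astrocytes (edgeR log2 difference -1.83, unadjusted p = 0.0138). It averaged 173 ± 100.1 (n = 3) in shXbp1 and 255 ± 102 (n = 4) in shScrmbl microglia, and 67.2 ± 23.5 (n = 2) in shXbp1 and 117.5 ± 11.7 (n = 2) in shScrmbl monocytes.

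The genes that followed Fcer1g most closely from library to library differed between astrocytes and microglia. Likeness was the mean absolute gap of log2(signal + 1), centred on each gene's mean, among genes with a count in every library. Over 8 astrocyte libraries and 3144 genes, the smallest gaps were those of Vav1 (0.24), a signalling protein of blood cells, Tyrobp (0.26) and Mpeg1 (0.26), a macrophage gene, while the gaps of Cd14, Fcgr3 and Cd84 were 0.56, 0.60 and 1.01. Over 7 microglia libraries and 1292 genes, the smallest gaps were those of Atp6v1f (0.09), a proton pump subunit, Sirpa (0.11) and Rpl15 (0.13), a ribosomal protein, while those of Fcgr3, Cd84 and Cd14 were 0.25, 0.44 and 0.54. These are descriptions over libraries that share depth and cell make-up within a table. The genes ranked were not the same set in astrocytes and microglia, so a difference between the cell types is not shown. In astrocytes Fcer1g stood far above the rest in shScrmbl replicate 2, at 1311 against 146 to 414.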

How the data were processed

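RNA of sorted cells was counted by 3′ digital gene expression, per the labels' protocols. For each cell type the authors deposited a table of normalised signal. BWA 0.7.10, limma 3.34.1 and the build mm10 are named in the submitters' processing notes, while the counter, annotation and scaling are not given in the sources used here. Dividing the deposited signal by the step of its library gave whole counts for 100% of values above 0, within 0.01 of a count, so counts were recovered. Whether they are reads or molecules is not given in the sources used here, and intervals and floors cover counting error only. No pair of replicates was alike within sampling noise (chi-square per gene 1.46 to 4.72 over 23 pairs).

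Tables were fitted separately for shXbp1 against shScrmbl, without covariates. limma 3.58.1 (trend, robust) on log2(signal + 1) was the main test, on genes whose signal reached 1 in at least the number of libraries of the smaller group. Log2 differences on this scale depend on the pseudocount where a library is at 0, and then depart from the count tests either way. Fcgr2b was -3.02 by limma and -0.84 by edgeR in microglia, and -3.33 and 0.53 in monocytes. Lilrb4 was -0.25 by limma and -2.10 by edgeR in astrocytes. edgeR 4.0.16 (quasi-likelihood) and DESeq2 1.42.0 used recovered counts. R 4.3.3 and Python 3.11.15 were used, and the fits were tested on simulated data. Symbols were matched ignoring case. The receptor genes and lists were chosen with earlier results of these data known. The genes named were the 10 receptors, up to 4 highest members of each partner list, from which examples are given, and the 3 genes most like Fcer1g. Alternatives were a pseudocount of 10, no filter, a mean signal of at least 100, quantile normalisation, edgeR, DESeq2, a replicate block and leaving out each library.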

Additional observations from a re-analysis of the deposited data

Results flagged for a closer look

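In the groups of 4 libraries, 30 sets of values (10 receptor genes in 3 groups) were examined for a library far from the others, and 3 had one, where chance gives about 1 in 20. Fcer1g in microglia shScrmbl replicate 1 was 3997, while the other 3 libraries of its group were between 5405 and 5640.0. Fcgr4 in the same library was 51.9, while the others were between 215 and 243. Cd84 in microglia shScrmbl replicate 4 was 440, while the others were between 727 and 747. Replicates 1 and 4 were the shallowest microglia shScrmbl libraries.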

How the results depend on the processing

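Of the receptor log2 differences under the alternatives, 195 in astrocytes, 194 in microglia and 109 in monocytes kept their direction and stayed short of the threshold, 29, 16 and 33 changed sign, and 8 in monocytes passed the threshold, all without shXbp1 replicate 2, where the lone library is assumed to vary like the others. In astrocytes Tlr2 was -0.27 with quantile normalisation, -1.38 with edgeR and -1.11 with DESeq2. In microglia quantile normalisation gave 0.043 for Clec7a and 0.11 for Fcgr3. In monocytes edgeR and DESeq2 gave 0.092 and 0.11 for Cd14, 0.34 and 0.35 for Clec7a, 0.0049 and 0.043 for Fcer1g, 0.53 and 0.38 for Fcgr2b, and 0.91 and 0.79 for Lilrb4. Leaving out each library, by limma or edgeR, gave astrocyte ranges of -2.07 to 0.22 for Cd14, -1.46 to 0.57 for Cd84, -2.21 to 1.21 for Clec7a, -3.10 to 0.31 for Fcgr2b, -1.27 to 0.62 for Fcgr3, -3.07 to 0.56 for Fcgr4, -2.40 to 0.85 for Lilrb4 and -1.93 to 2.27 for Tlr2. In microglia they were -0.60 to 0.52 for Cd14, -0.68 to 0.21 for Clec7a, -0.36 to 0.18 for Fcgr1 and -0.61 to 0.16 for Tlr2, and in monocytes -1.62 to 0.89 for Cd14, -1.05 to 0.92 for Clec7a, -1.23 to 0.64 for Fcer1g, -0.21 to 0.66 for Fcgr1, -7.96 to 1.29 for Fcgr2b, -1.64 to 0.43 for Fcgr3 and -6.96 to 1.60 for Lilrb4. Receptor genes with a lower value in shXbp1 were 4 in astrocytes with a mean signal of at least 100, which kept 4, and 3 in monocytes with edgeR and with DESeq2. Leaving out libraries gave 3 to 10 in astrocytes, 7 to 10 in microglia and 2 to 8 in monocytes. Over all genes, calls in astrocytes were 0 by limma, 1 by edgeR and 0 to 8 without a library, in microglia 0 by limma, 6 with quantile normalisation, 12 by edgeR and 0 to 23 without a library, and in monocytes 101 by limma, 0 with a pseudocount of 10, 0 with a mean signal of at least 100, 0 with quantile normalisation, 1 by edgeR, 0 by DESeq2 and 0 to 1163 without a library. The cause of these shifts was not tested. The deviations of same-numbered libraries had correlations of -0.08 to 0.06, and the numbers were not taken as pairs. Counting noise at this depth pulls such correlations toward 0, so they cannot exclude pairing. In monocytes, with 2 libraries per group, replicates 1 and 2 give the same value by construction. With a replicate block limma called 0, 0 and 112 genes in astrocytes, microglia and monocytes, and no receptor gene changed its call. Depth limits the low genes most, since 1 count is worth a signal of up to 27.6 in astrocytes, 76.0 in microglia and 50.6 in monocytes.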
